A study of Mus musculus with 8 samples.

Results

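The genes described here are 9 genes of the bone morphogenetic protein (BMP) pathway and of the inhibitor of DNA binding (ID) family in mouse embryonic stem cells (ESCs): the ligand gene Bmp4, the receptor genes Bmpr1a and Bmpr2, the inhibitor genes Smad6 and Bambi, and Id1, Id2, Id3 and Id4. They were taken by gene symbol from the 38991 genes with a deposited value, and all 9 were found. The question was whether their transcript levels differed when ESCs were kept in different combinations of self-renewal signals. Expression was measured by RNA sequencing in 8 cultures, with 2 cultures in each of 4 conditions.

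All 8 cultures were of Rex1GFPd2 cells, a single ESC line of strain 129 in which a short-lived GFP reports the activity of Rex1 (Zfp42), a gene of naive ESCs. The medium was N2B27, which holds no serum, with combinations of the cytokine LIF, the GSK3 inhibitor CH (CHIR99021, 3 μM) and the MEK inhibitor PD (PD0325901, 1 μM). Every culture had first spent 6 passages in 2i, which is CH together with PD. The cells were then kept for 5 passages, to passage 11, in 2i+LIF (LIF, CH and PD), 2i (CH and PD), LIF+PD or CH+LIF, with a passage every 3 days and 15000 cells seeded per square centimetre. Relative to 2i+LIF, the 2i cultures lacked LIF, the LIF+PD cultures lacked CH and the CH+LIF cultures lacked PD. A single line that had been adapted to 2i limits how far the values can stand for ESCs in general, and the labels do not say whether the 2 cultures of a condition had separate origins, so p-values measure only the spread between these cultures.

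BMPs are secreted ligands that bring type I and type II receptor kinases together. The active receptors phosphorylate SMAD1, SMAD5 and SMAD9, which enter the nucleus with SMAD4 and switch on target genes, the ID genes among them. ID proteins bind E proteins, a class of transcription factors, and keep them off DNA, and in mouse ESCs the BMP and ID genes are known for their role in holding back neural differentiation next to LIF.

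Values are given in FPKM, which count sequenced fragments corrected for transcript length and library size and so allow levels of different genes to be compared per length. The FPKM of each culture summed to between 715600 and 875500, and the read number behind each value is unknown. Depth relative to replicate 1 of 2i+LIF, estimated from weakly expressed genes, ranged from 0.499 in replicate 1 of 2i to 1.18 in replicate 2 of CH+LIF. Socs3, a LIF target, stood at 63.9 to 119 FPKM in the 6 cultures with LIF and at 2.59 and 1.29 in 2i. Axin2, a target of the pathway that CH activates, stood at 59.4 to 68.4 in the 6 cultures with CH and at 1.85 and 2.46 in LIF+PD. Spry4, a target of the pathway that PD blocks, stood at 37.5 and 40.7 in CH+LIF and at 0.293 to 2.17 in the 6 cultures with PD. The labelled cell type was checked against 7 genes listed as markers of naive ESCs. All were expressed in every culture, with a summed level between 2932 and 3807 FPKM, of which Pou5f1 held 1625 to 2269. Pou5f1 and Sox2 are also expressed in primed pluripotent cells. Of the 7, 6 differed among the 4 conditions (limma F test, adjusted p below 0.05). Mean FPKM fell from 200 in 2i+LIF to 49.1 in 2i for Klf4 and from 119 to 58.2 for Tfcp2l1. In LIF+PD the means were 110 for Klf4 and 53.0 for Tfcp2l1. Esrrb fell from 236 in 2i+LIF to 177 in LIF+PD. All 3 were called lower in LIF+PD than in 2i+LIF (limma), and also in 2i. The mean FPKM of Nanog fell from 513 in 2i+LIF to 294 in CH+LIF. Only Zfp42 in LIF+PD was called higher than in 2i+LIF. The check thus does not show an unchanged naive state.

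Of the 9 genes, 6 differed among the 4 conditions, namely Bmp4, Smad6 and the 4 ID genes, against 46.8% of the 12927 genes tested (limma F test on log2(FPKM + 1), Benjamini-Hochberg adjusted p below 0.05). Adjusted p for these 6 lay between 4.26e-05 for Bmp4 and 0.00139 for Id3. For Bmpr1a (adjusted p = 0.153), Bambi (adjusted p = 0.209) and Bmpr2 (adjusted p = 0.999) the test did not pass. All 9 genes were among those tested, which had at least 1 FPKM in at least 2 cultures, and 8 of them had at least 1 FPKM in all cultures. The exception was Id1, at 0.891 FPKM in replicate 2 of 2i. In RNA from whole cultures, fewer cells that express a gene and less RNA per cell cannot be told apart, and this holds for each difference below.

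**Figure D1:**
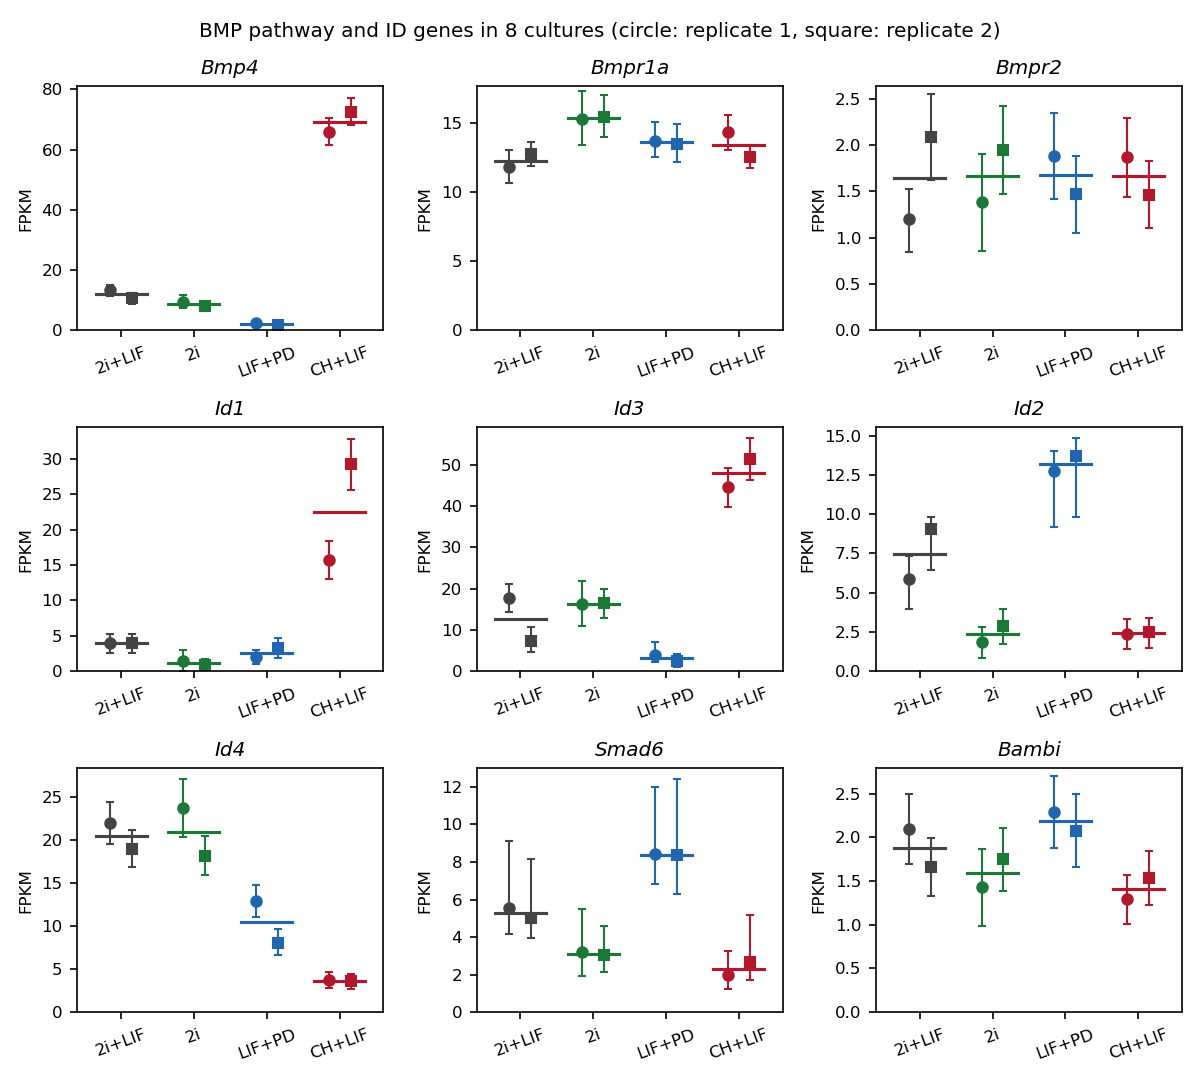
FPKM of the 9 genes (vertical axes, linear from 0, a scale per gene) in the 4 conditions (horizontal axes). Circles are replicate 1, squares replicate 2, horizontal lines the mean of both, and error bars the lower and upper bounds deposited by the authors. Bmp4, Id1 and Id3 were highest in both CH+LIF cultures, Id2 and Smad6 in both LIF+PD cultures, and Id4 was lowest in both CH+LIF cultures.

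Without PD, in CH+LIF against 2i+LIF, Bmp4, Id1 and Id3 rose 5.81-fold, 5.69-fold and 3.82-fold in mean FPKM, whereas Id4, Id2 and Smad6 fell 5.61-fold, 3.08-fold and 2.27-fold. Thus 3 of the 9 genes were higher, against 12.2% of all genes tested, and 3 were lower, against 13.3% (limma, adjusted p below 0.05). In absolute terms, the median log2 difference was 1.28 over the 9 genes and 0.28 over all genes tested. Without CH, in LIF+PD against 2i+LIF, Id2 and Smad6 rose 1.77-fold and 1.59-fold, and Bmp4, Id3 and Id4 fell 6.02-fold, 3.87-fold and 1.95-fold. These were 2 genes higher, against 14.8% of all genes, and 3 lower, against 10.4%, with a median absolute log2 fold change of 0.59 over the 9 genes and 0.27 over all genes. Without LIF, in 2i against 2i+LIF, Id1, Id2 and Smad6 fell 3.32-fold, 3.17-fold and 1.68-fold, 3 genes against 8.86% of all genes that were lower. By limma, 0 of the 9 genes were higher in 2i at the adjusted threshold, against 9.77% of all genes, and 1 (Bmpr1a) at an unadjusted p below 0.05. The median absolute log2 fold change was 0.40 over the 9 genes and 0.24 over all genes. The 3 comparisons share the 2i+LIF cultures. Without the filter on low levels, when 38991 genes were tested, 3 of the 9 genes passed in CH+LIF (Bmp4, Id4 and Smad6), 1 in LIF+PD (Bmp4) and, by limma, 0 in 2i, where 4 had an unadjusted p below 0.05. Of all 38991 genes, 647 were then higher and 778 lower in CH+LIF, 1038 and 734 in LIF+PD, and 494 and 564 in 2i. The adjusted p of Id1, Id2 and Id3 in CH+LIF was then 0.0526, 0.0669 and 0.0933. No change that passed reversed its direction under any of the 15 alternative settings.

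**Figure D2:**
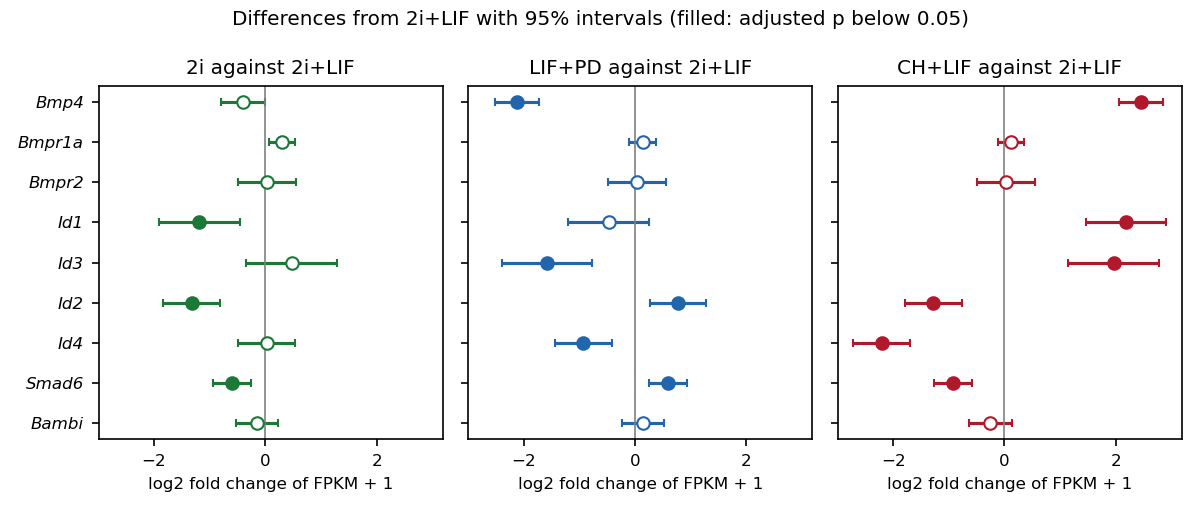
Difference from 2i+LIF in log2(FPKM + 1) for each of the 9 genes (vertical axis), in 2i, LIF+PD and CH+LIF (panels from left to right, each horizontal axis a log2 fold change). Points are limma estimates, bars their 95% intervals, and filled points have an adjusted p below 0.05. In CH+LIF the filled points lie at 1.96 to 2.45 for Id3, Id1 and Bmp4 and at -0.92 to -2.20 for Smad6, Id2 and Id4.

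The 3 conditions that lacked a component were also compared with each other. Against LIF+PD, CH+LIF had higher Bmp4, Id3 and Id1, at 34.9, 14.8 and 8.55 times the mean FPKM, and lower Id2, Id4 and Smad6. These were 3 genes higher, against 12.6% of all genes, and 3 lower, against 17.8%, with a median absolute log2 fold change of 1.51 over the 9 genes and 0.29 over all genes. Against 2i, CH+LIF had higher Id1, Bmp4 and Id3 (3 genes, against 10.6% of all genes) and lower Id4 (1 gene, against 13.3%). The median absolute log2 fold change there was 0.32 over the 9 genes, little above the 0.27 over all genes. LIF+PD against 2i had higher Id2 and Smad6 (2 genes, against 14.0% of all genes) and lower Bmp4, Id3 and Id4 (3 genes, against 11.1%). The median absolute log2 fold change was then 0.95 over the 9 genes and 0.27 over all genes.

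The ligand gene Bmp4 encodes a secreted BMP and lies on chromosome 14, 46383520 to 46390669, on the minus strand of mm10 (GRCm38). The 250 bases before the RefSeq start (RefSeq, GRCm38.p6) were read for 7 of the 9 genes and searched on both strands for 5 short motifs: GGCGCC (a GC-rich SMAD element, present in 9.59% of 32851 promoter windows of the same length), CAGAC (the SMAD-binding element, 42.2%), TTCNNNGAA (STAT, 7.02%), TCAAAG (the core bound by TCF/LEF factors, 13.8%) and CCGGAAG (ETS, 6.91%). The 7 genes with a window were Bmp4, Bmpr1a, Bmpr2, Smad6, Id2, Id3 and Id4. A match describes letters in a window and is not evidence of binding. The Bmp4 window, at chr14:46390670-46390919 on the minus strand, is shown because Bmp4 had the widest range among the 9 genes. The capitals mark its single match, to the ETS motif on the reverse strand, starting 96 bases before the start.
Bmp4: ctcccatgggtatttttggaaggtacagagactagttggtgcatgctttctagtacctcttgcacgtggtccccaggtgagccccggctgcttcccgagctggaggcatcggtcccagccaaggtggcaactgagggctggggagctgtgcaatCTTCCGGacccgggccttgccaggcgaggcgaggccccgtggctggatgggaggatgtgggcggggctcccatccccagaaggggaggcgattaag

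Bmp4 stood at 13.2 and 10.7 FPKM in replicates 1 and 2 of 2i+LIF, at 9.52 and 8.07 in 2i, at 2.37 and 1.59 in LIF+PD and at 65.9 and 72.5 in CH+LIF. The 4 conditions did not overlap, and the cultures without PD were the highest and those without CH the lowest. In log2(FPKM + 1), CH+LIF was above 2i+LIF by 2.45 (SE 0.17, limma adjusted p = 0.000364), and LIF+PD differed from it by -2.12 (SE 0.17, adjusted p = 0.000337). The Bmp4 level in 2i differed from 2i+LIF by -0.40 (95% interval -0.79 to -0.0017), which did not pass after adjustment (adjusted p = 0.148). CH+LIF was above LIF+PD by 4.57 (SE 0.17, adjusted p = 2.64e-05) and above 2i by 2.84 (adjusted p = 0.000123), and LIF+PD differed from 2i by -1.72 (adjusted p = 0.000582). These 5 Bmp4 calls held under all 15 alternative settings. Gm15222, an antisense transcript annotated inside Bmp4, was listed at 5.82 FPKM in replicate 1 of CH+LIF and at 0 to 1.40 in the other cultures, and Gm15217, which overlaps its end, at no more than 1.19. Whether the FPKM values used strand is not given in the sources used here, so reads of Bmp4 and of these transcripts cannot be told apart.

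For the receptor genes, none of the 6 comparisons passed after adjustment (limma), and 1 had an unadjusted p below 0.05, that of Bmpr1a in 2i against 2i+LIF. Bmpr1a encodes a type I BMP receptor (chromosome 14, 34410734 to 34503341, minus strand), and it stood at 11.8 and 12.7 FPKM in 2i+LIF, 15.2 and 15.4 in 2i, 13.7 and 13.5 in LIF+PD and 14.3 and 12.5 in CH+LIF. Its lowest culture was a 2i+LIF culture and both 2i cultures lay above the other 6. The log2 difference of 2i from 2i+LIF was 0.30 (95% interval 0.063 to 0.54, limma adjusted p = 0.0821), and those of LIF+PD and CH+LIF from 2i+LIF had intervals of -0.10 to 0.38 and -0.12 to 0.36. Bmpr2 encodes the type II receptor for BMPs (chromosome 1, 59764279 to 59870549, plus strand), and its levels were 1.20 and 2.08 FPKM in 2i+LIF, 1.38 and 1.95 in 2i, 1.88 and 1.47 in LIF+PD and 1.87 and 1.46 in CH+LIF. The Bmpr2 replicates spanned nearly the same range in every condition, and its means lay between 1.64 and 1.68. Each Bmpr2 interval against 2i+LIF still allowed a log2 difference between -0.50 and 0.56, so a failed test does not show equal levels. GGCGCC was found at -198 in the Bmpr1a window and at -105 in that of Bmpr2, counted from the start.

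Smad6 encodes an inhibitory SMAD that blocks the type I receptors and is itself a BMP target (chromosome 9, 63953076 to 64022059, minus strand). It stood at 5.54 and 4.99 FPKM in 2i+LIF, 3.23 and 3.03 in 2i, 8.42 and 8.37 in LIF+PD and 1.96 and 2.67 in CH+LIF. The conditions did not overlap, with LIF+PD highest, then 2i+LIF, 2i and CH+LIF, which is the reverse of the order of LIF+PD, 2i+LIF and CH+LIF in Bmp4. The log2 difference from 2i+LIF was -0.92 in CH+LIF (SE 0.14, limma adjusted p = 0.00529), 0.59 in LIF+PD (adjusted p = 0.0257) and -0.60 in 2i (adjusted p = 0.0295). The call in CH+LIF held under all 15 alternative settings. The call in LIF+PD was lost without any 1 of the 4 cultures compared (adjusted p up to 0.123), and the call in 2i without any 1 of the 2i+LIF, 2i or LIF+PD cultures (adjusted p = 0.0521 to 0.141). CH+LIF and 2i, the neighbours with the lowest levels, differed by -0.32 (95% interval -0.66 to 0.019, adjusted p = 0.150). LIF+PD exceeded 2i by 1.19 (adjusted p = 0.00153) and CH+LIF differed from LIF+PD by -1.51 (adjusted p = 0.000493). The Smad6 window, at chr9:64022060-64022309 on the minus strand, is shown as the window of the inhibitor that moved. It held none of the 5 motifs, which says only that these letters are not in it.
Smad6: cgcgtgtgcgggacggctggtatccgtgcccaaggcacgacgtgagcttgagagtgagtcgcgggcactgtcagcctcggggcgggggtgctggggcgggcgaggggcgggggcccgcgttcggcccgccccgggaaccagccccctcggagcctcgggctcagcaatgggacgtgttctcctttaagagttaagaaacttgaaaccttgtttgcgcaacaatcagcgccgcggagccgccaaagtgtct

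Bambi encodes a pseudoreceptor that lacks the kinase domain and damps BMP signalling. It was weakly expressed, at 2.10 and 1.66 FPKM in 2i+LIF, 1.44 and 1.75 in 2i, 2.29 and 2.08 in LIF+PD and 1.29 and 1.53 in CH+LIF. The LIF+PD cultures lay above those of CH+LIF and of 2i, and the other conditions overlapped except CH+LIF with 2i+LIF. The widest difference, CH+LIF from LIF+PD, was -0.40 in log2(FPKM + 1) (95% interval -0.78 to -0.023, limma adjusted p = 0.101). Against 2i+LIF the estimates were -0.15 in 2i, 0.15 in LIF+PD and -0.25 in CH+LIF, and their intervals together ran from -0.63 to 0.53.

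The 4 ID genes moved in different directions, so the make-up of the family differed among the conditions. The summed FPKM of Id1 to Id4 was 49.5 and 39.4 in 2i+LIF, 43.4 and 38.4 in 2i, 31.6 and 27.6 in LIF+PD and 66.3 and 86.6 in CH+LIF. The 2 CH+LIF cultures lay above all others, the 2 LIF+PD cultures below, and 2i and 2i+LIF overlapped. In CH+LIF, Id3 held 67.2% and 59.3% of the sum and Id1 23.6% and 33.7%, whereas Id4 held 5.64% and 4.12%. Id4 held the greatest share in both 2i+LIF cultures (44.4% and 48.3%) and both 2i cultures (54.7% and 47.4%). In LIF+PD, Id2 held 40.4% and 49.5% and Id4 41.0% and 29.3%. Id2 and Id4 together made up most of the sum in every culture except those of CH+LIF. These shares are a description and were not tested.

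**Figure D3:**
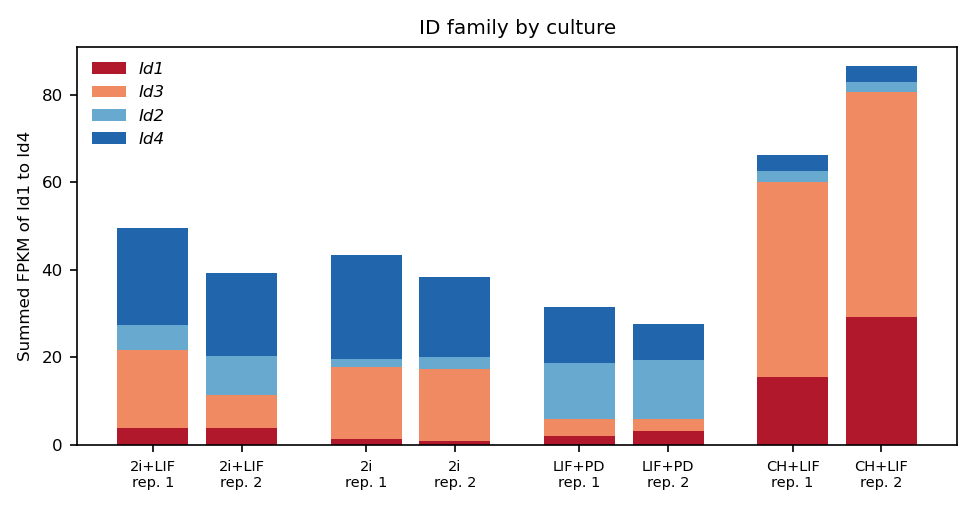
Summed FPKM of Id1, Id3, Id2 and Id4 (vertical axis, stacked from the bottom in that order) in each of the 8 cultures (horizontal axis). Red and orange segments (Id1 and Id3) make up most of both CH+LIF bars, and blue segments (Id2 and Id4) most of all other bars.

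Id1 (chromosome 2, 152736251 to 152737410, plus strand) is widely used as a readout of BMP signalling. It stood at 3.94 and 3.94 FPKM in 2i+LIF, 1.48 and 0.891 in 2i, 1.97 and 3.28 in LIF+PD and 15.7 and 29.2 in CH+LIF. Both CH+LIF cultures lay far above the other 6, although they differed from each other by more than the authors' bounds, which were 13.0 to 18.3 and 25.6 to 32.8. The log2 difference of CH+LIF was 2.18 from 2i+LIF (SE 0.31, limma adjusted p = 0.00367), 3.37 from 2i (adjusted p = 0.000667) and 2.65 from LIF+PD (adjusted p = 0.00105). Leaving out a culture moved the first of these between 1.75 and 2.61. In 2i, Id1 differed from 2i+LIF by -1.19 (SE 0.31, adjusted p = 0.0371). This call was lost without any 1 of the 4 cultures compared (adjusted p = 0.0652 to 0.142), with TPM (adjusted p = 0.0514) and with a pseudocount of 5, where the difference was -0.53 (adjusted p = 0.138). The upper bound of replicate 1 of 2i, 2.96 FPKM, lay above the lower bounds of 2i+LIF, 2.59. LIF+PD differed from 2i+LIF by -0.47 (95% interval -1.20 to 0.25, adjusted p = 0.304) and from 2i by 0.72 (95% interval -0.0075 to 1.44, adjusted p = 0.136).

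Id3 (chromosome 4, 136143497 to 136145755, plus strand), which is often expressed together with Id1, had the highest level of the family in CH+LIF. Its values were 17.7 and 7.38 FPKM in 2i+LIF, 16.3 and 16.4 in 2i, 3.91 and 2.57 in LIF+PD and 44.5 and 51.4 in CH+LIF. CH+LIF was highest and LIF+PD lowest without overlap, whereas the 2i cultures lay between the 2 cultures of 2i+LIF, whose bounds of 14.3 to 21.1 and 4.64 to 10.7 did not meet. The log2 difference from 2i+LIF was 1.96 in CH+LIF (SE 0.35, limma adjusted p = 0.00779) and -1.58 in LIF+PD (SE 0.35, adjusted p = 0.0167). The first held without each culture in turn, at 1.39 to 2.54, and the second was lost without replicate 2 of LIF+PD (-1.35, adjusted p = 0.0885). The difference of 2i from 2i+LIF was 0.47 (95% interval -0.34 to 1.29, adjusted p = 0.381) and depended on the 2i+LIF culture: without replicate 1 it was 1.05 (adjusted p = 0.0340) and without replicate 2 it was -0.10 (adjusted p = 0.795). CH+LIF exceeded 2i by 1.49 (adjusted p = 0.0222), a call that was lost without any 1 of the 4 cultures compared (adjusted p = 0.0699 to 0.0950). CH+LIF exceeded LIF+PD by 3.54 (adjusted p = 0.000525), and LIF+PD differed from 2i by -2.05 (adjusted p = 0.00561). The Id3 window is shown in part, as 30 bases around each match. No stretch of more than 30 of its bases lay outside the untranslated regions of the annotation. The stretches at chr4:136143643-136143672 and chr4:136143742-136143771 (plus strand) lie inside the annotated gene. They hold its 2 CAGAC matches, the first at -167 from the start. The capitals mark the matches, the second on the reverse strand.
Id3, first match: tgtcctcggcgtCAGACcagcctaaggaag
Id3, second match: ggacccttggcgGTCTGttttgaataaggg

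Id2 (chromosome 12, 25093801 to 25096092, minus strand) differed from Id1 and Id3 in its order of levels. It stood at 5.88 and 9.05 FPKM in 2i+LIF, 1.85 and 2.86 in 2i, 12.8 and 13.7 in LIF+PD and 2.38 and 2.47 in CH+LIF. LIF+PD was highest, 2i+LIF intermediate, and 2i and CH+LIF overlapped at the lowest levels. In log2(FPKM + 1), Id2 differed from 2i+LIF by -1.32 in 2i (SE 0.22, limma adjusted p = 0.00698) and by -1.28 in CH+LIF (SE 0.22, adjusted p = 0.00678). Neither of these calls was lost without any 1 culture. The increase in LIF+PD over 2i+LIF was 0.77 (SE 0.22, adjusted p = 0.0393), and it was lost without replicate 1 of 2i+LIF (0.50, adjusted p = 0.182), without either LIF+PD culture (adjusted p = 0.117 and 0.147) and without either CH+LIF culture (adjusted p = 0.0606 and 0.0604), and with a pseudocount of 0.1 (adjusted p = 0.0559). LIF+PD exceeded 2i by 2.10 (adjusted p = 0.000742), and CH+LIF differed from LIF+PD by -2.05 (adjusted p = 0.000722). The 2 lowest conditions, CH+LIF and 2i, differed by 0.045 (95% interval -0.47 to 0.56). The Id2 stretch at chr12:25096254-25096342 (minus strand) is shown for its GGCGCC match, in capitals, 231 bases before the start.
Id2: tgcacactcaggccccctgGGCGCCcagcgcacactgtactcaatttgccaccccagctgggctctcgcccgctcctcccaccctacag

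Id4 (chromosome 13, 48261427 to 48264036, plus strand) encodes a family member with known roles in neural cells. It stood at 22.0 and 19.0 FPKM in 2i+LIF, 23.7 and 18.2 in 2i, 12.9 and 8.09 in LIF+PD and 3.74 and 3.57 in CH+LIF. The 2i and 2i+LIF cultures overlapped at the top, LIF+PD lay below them and CH+LIF lowest, without overlap. The log2 difference from 2i+LIF was -2.20 in CH+LIF (SE 0.22, limma adjusted p = 0.00115) and -0.93 in LIF+PD (SE 0.22, adjusted p = 0.0209). The first held under all 15 alternative settings, and the second was lost without either 2i+LIF culture (adjusted p = 0.109 and 0.0616) and without replicate 2 of LIF+PD (-0.62, adjusted p = 0.0803). Against 2i, Id4 differed by -2.23 in CH+LIF (adjusted p = 0.000847) and by -0.95 in LIF+PD (adjusted p = 0.0182), and the latter was lost without replicate 1 of 2i (-0.77, adjusted p = 0.0945) or replicate 2 of LIF+PD (-0.65, adjusted p = 0.0715). CH+LIF differed from LIF+PD by -1.27 (adjusted p = 0.00511), and 2i differed from 2i+LIF by 0.022 (95% interval -0.49 to 0.53). A330033J07Rik, an antisense gene that overlaps Id4, was listed at no more than 0.224 FPKM. The Id4 window, at chr13:48260866-48261115 on the plus strand, is shown because Id4 and Id2 were the ID genes that fell in CH+LIF and their windows each hold a GGCGCC match, here 148 bases before the start and in capitals. Bmpr1a and Bmpr2, which did not pass any test, hold the same 6 letters. Of the ID genes that rose in CH+LIF, Id3 had no GGCGCC match and Id1 had no window to search. G and C made up 75.6% of the Id4 window, and the share of 9.59% is over windows of any composition.
Id4: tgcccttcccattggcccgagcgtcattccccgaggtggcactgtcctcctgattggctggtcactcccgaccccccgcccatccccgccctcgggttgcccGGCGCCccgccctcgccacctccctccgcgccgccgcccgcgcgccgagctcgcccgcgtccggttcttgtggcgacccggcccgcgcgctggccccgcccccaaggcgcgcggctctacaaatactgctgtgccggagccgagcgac

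For Id1 and Id3, the 5 tested genes with the most similar profile were found by the root mean square difference of log2(FPKM + 1) over the 8 cultures, each gene centred on its own mean. Those nearest to Id1 were Fcgr2b (0.33), Nkx6-3 (0.41), Ecscr (0.48), Trf (0.53) and Dusp6 (0.54). Fcgr2b, an inhibitory Fc receptor, stood at 11.1 and 13.5 FPKM in CH+LIF and at 0 to 2.32 in the other 6 cultures. Dusp6, a phosphatase that is a target of the pathway PD blocks, stood at 26.5 and 32.3 in CH+LIF and at 3.55 to 6.86 elsewhere. Those nearest to Id3 were Ddx58 (0.38), Rerg (0.40), Cdk6 (0.43), Bdh2 (0.47) and Nt5e (0.48). Ddx58, a sensor of foreign RNA, stood at 61.9 and 52.4 FPKM in CH+LIF, at 18.9 to 27.1 in 2i+LIF and 2i, and at 6.82 and 6.94 in LIF+PD. Like Id3, Ddx58 was thus highest in CH+LIF and lowest in LIF+PD.

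Lists of 56 other BMP pathway genes were followed in the same cultures, and 30 of them were expressed at a level that allowed a test. Of these, 20 differed among the 4 conditions, beside 46.8% of all genes tested, a share that also stands beside the counts for each list below. Of the 13 other ligand genes 3 were tested (Bmp7, Gdf3 and Bmp8a), and 0 of these 3 were higher in any of the 6 comparisons (limma, also at an unadjusted p below 0.05). Over all genes tested, 9.77% to 14.8% were higher in these comparisons at an adjusted p below 0.05. Bmp7, a further BMP ligand, stood at 3.75 and 5.55 FPKM in 2i+LIF and at 1.30 and 1.94 in CH+LIF, a log2 difference of -1.10 (limma adjusted p = 0.0158). Gdf3, a related ligand of ESCs, stood at 81.4 and 68.3 in 2i+LIF and at 54.3 and 47.1 in CH+LIF, a difference of -0.55 (adjusted p = 0.0125). Both thus fell in CH+LIF, where Bmp4 rose. The Bmp7 call was lost without replicate 2 of 2i+LIF or replicate 1 of CH+LIF (adjusted p = 0.0870 and 0.0915), and the Gdf3 call without replicate 1 of 2i+LIF or replicate 2 of CH+LIF (adjusted p = 0.0670 and 0.0621).

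Of the 6 other receptor genes tested, 4 passed over the 4 conditions, namely Rgma, Rgmb, Acvr1 and Eng. Rgma, which encodes a BMP co-receptor, stood at 22.9 and 24.2 FPKM in 2i+LIF, 3.28 and 3.72 in 2i, 8.48 and 10.8 in LIF+PD and 2.84 and 2.79 in CH+LIF. It thus fell in each condition that lacked a component of 2i+LIF, with log2 differences of -2.45 in 2i (limma adjusted p = 0.000115), -1.22 in LIF+PD (adjusted p = 0.00119) and -2.69 in CH+LIF (adjusted p = 0.000186). Its relative Rgmb fell in CH+LIF (-0.99, adjusted p = 0.00241), from 6.42 and 6.66 FPKM to 2.58 and 3.01. Acvr1, a type I receptor, stood at 6.05 and 5.84 in 2i+LIF, 5.32 and 6.49 in 2i, 3.22 and 3.42 in LIF+PD and 2.56 and 3.10 in CH+LIF. It fell in LIF+PD (-0.69, adjusted p = 0.0139) and in CH+LIF (-0.86, adjusted p = 0.00623), and the former was lost without any 1 of the 4 cultures compared (adjusted p up to 0.0747). The co-receptor gene Eng, at 23.9 and 29.4 in 2i+LIF, stood at 49.6 and 41.9 in LIF+PD (0.76, adjusted p = 0.0176) and at 12.6 and 17.4 in CH+LIF (-0.80, adjusted p = 0.0152). Eng thus moved against Bmp4 in both conditions. The LIF+PD call was lost without replicate 1 of 2i+LIF or of LIF+PD (adjusted p = 0.10 and 0.0986), and the CH+LIF call without replicate 2 of 2i+LIF or replicate 1 of CH+LIF (adjusted p = 0.0837 and 0.0715). The type II receptor genes Acvr2a and Acvr2b lay between 1.64 and 6.62 FPKM and did not pass (adjusted p = 0.294 and 0.317).

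**Figure D4:**
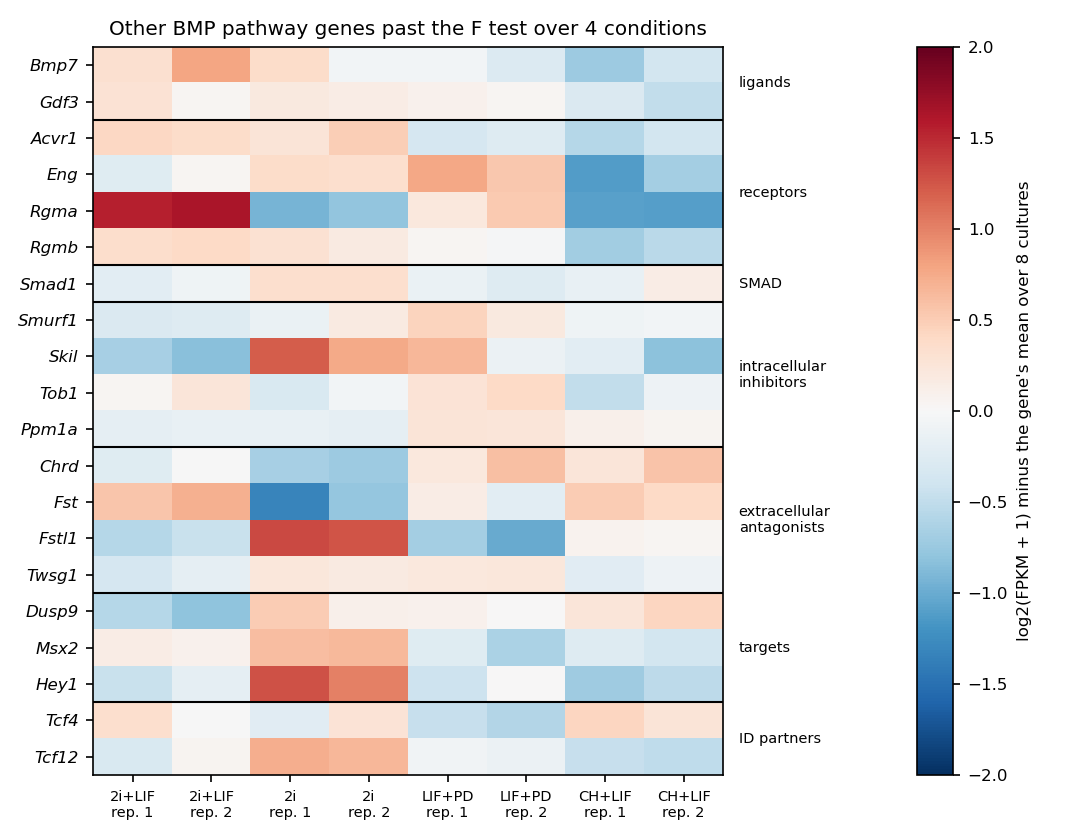
The 20 other BMP pathway genes past the F test over the 4 conditions (rows, grouped by role) in the 8 cultures (columns). Colour is log2(FPKM + 1) minus the mean of the gene over the 8 cultures, from blue (below) to red (above), and it runs from -1.33 to 1.63. Rgma is highest in both 2i+LIF cultures, and Fstl1, Hey1, Skil and Tcf12 are highest in both 2i cultures.

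Among the SMAD genes that carry the BMP signal, Smad1 stood at 6.20 and 6.78 FPKM in 2i+LIF and at 9.49 and 9.42 in 2i, a log2 difference of 0.48 (limma adjusted p = 0.0481). This call was lost without each of the 2i+LIF, 2i and LIF+PD cultures, under both rescalings and in 11 of the 15 alternative settings (adjusted p up to 0.195). Smad5, at 8.23 to 15 FPKM, and Smad4, at 69.8 to 106, did not pass the test over the 4 conditions (adjusted p = 0.935 and 0.411). Smad9, another signal-carrying SMAD gene, stood below 1 FPKM in all cultures and was not tested. The inhibitory Smad7, at 15.8 to 52.4 FPKM, stood at 52.4 and 44.2 in 2i+LIF and did not pass (adjusted p = 0.107).

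Of the 7 other genes for intracellular inhibitors, 4 passed over the 4 conditions. Skil, a co-repressor of SMADs, stood at 18.5 and 13.3 FPKM in 2i and at 4.34 and 3.73 in 2i+LIF, a log2 difference of 1.73 (limma adjusted p = 0.00961) that was lost without replicate 2 of 2i+LIF or replicate 1 of 2i (adjusted p = 0.0603 and 0.0505). Smurf1, a ubiquitin ligase for SMADs, rose by 0.58 in LIF+PD (adjusted p = 0.0222), from 9.14 and 9.40 to 15.8 and 13.1 FPKM, and this was lost without either 2i+LIF culture or replicate 1 of LIF+PD (adjusted p up to 0.120). The phosphatase gene Ppm1a rose there by 0.42 (adjusted p = 0.00799), from 25.5 and 26.2 to 35.2 and 34.8, a call lost without replicate 1 of 2i+LIF (adjusted p = 0.0527). Tob1, an antiproliferative gene, differed between CH+LIF (12.7 and 16.9 FPKM) and LIF+PD (22.3 and 24.4) by -0.64 (adjusted p = 0.0222), and lost this call without replicate 1 of CH+LIF or either LIF+PD culture (adjusted p = 0.0641 to 0.111). Smurf1 and Ppm1a were thus 2 of the 7 other inhibitor genes that were higher in LIF+PD than in 2i+LIF, beside 14.8% of all genes tested. Smad6, described above, was also higher there. Smad7 lay lower in LIF+PD, at 33.3 and 15.8 FPKM against 52.4 and 44.2 in 2i+LIF. Its log2 difference of -1.03 did not pass (limma adjusted p = 0.0691).

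Of the 15 other genes for secreted antagonists, 5 were tested and 4 passed. Fstl1, a follistatin-like gene, stood at 98.0 and 93.8 FPKM in 2i against 25.8 and 28.1 in 2i+LIF, a log2 difference of 1.79 (limma adjusted p = 0.000201), while Fst, which encodes follistatin, fell from 8.28 and 9.30 to 1.51 and 2.68 (-1.69, adjusted p = 0.00248). Both calls held under all 15 alternative settings. Chrd, which encodes the BMP antagonist chordin, stood at 0.174 and 0.125 FPKM in 2i and at 1.16 and 1.83 in LIF+PD (1.11, adjusted p = 0.00937) and 1.20 and 1.75 in CH+LIF (1.10, adjusted p = 0.0114). The first call was lost without replicate 2 of LIF+PD (0.91) and the second without replicate 2 of CH+LIF (0.94). Chrd reached 1 FPKM only in the LIF+PD and CH+LIF cultures, so it entered the test through the conditions called higher. Without the filter both calls were lost (limma adjusted p = 0.0686 and 0.0796). Twsg1, which modulates chordin, rose by 0.46 in 2i (adjusted p = 0.0250) and by 0.48 in LIF+PD (adjusted p = 0.0174) over 7.80 and 8.72 FPKM in 2i+LIF, the first lost without any 1 of the 4 cultures compared (adjusted p up to 0.131) and the second without replicate 1 of 2i+LIF or either LIF+PD culture (adjusted p up to 0.101). The other 10, including Nog, which encodes noggin, were below 1 FPKM in all cultures.

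Of 7 other genes listed as BMP targets, 4 were tested, Smad7 among them, and 3 passed. Hey1, a transcriptional repressor, stood at 5.10 and 4.10 FPKM in 2i and at 0.536 to 1.53 in the other 6 cultures, 1.46 above 2i+LIF on the log2 scale (limma adjusted p = 0.00421). Msx2, a homeobox gene, stood at 2.85 and 2.94 in 2i and at 0.631 to 1.78 elsewhere, and it differed from 2i by -1.06 in LIF+PD (adjusted p = 0.00529) and by -0.94 in CH+LIF (adjusted p = 0.0101), the latter lost without replicate 2 of CH+LIF (adjusted p = 0.0544). Hey1 and Msx2 were thus highest in 2i, where Id1 was lowest. Dusp9, which encodes an ERK phosphatase, stood at 4.78 and 3.91 FPKM in 2i+LIF and was higher in 2i (11.1 and 8.15), LIF+PD (8.02 and 7.56) and CH+LIF (9.04 and 10.5), by 0.98, 0.72 and 1.01 (adjusted p = 0.00825, 0.0211 and 0.00635). The first was lost without replicate 2 of 2i+LIF (adjusted p = 0.0563), and the second without that culture or either LIF+PD culture (adjusted p up to 0.108).

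The E proteins that ID proteins bind are encoded by Tcf3, Tcf4 and Tcf12, where Tcf3 is the E2A gene and not Tcf7l1. Tcf3 stood at 82.6 to 102 FPKM and did not pass (adjusted p = 0.367). Tcf12 stood at 37.0 and 35.4 in 2i and at 15 to 22.7 in the other 6 cultures, 0.83 above 2i+LIF in log2(FPKM + 1) (limma adjusted p = 0.00518). Tcf4 was lower in LIF+PD, at 9.87 and 8.94, than in 2i+LIF, at 17.9 and 13.9 (-0.69, adjusted p = 0.0370), and this call was lost in 9 of the 15 alternative settings, among them without any 1 of the 2i+LIF, LIF+PD or CH+LIF cultures (adjusted p = 0.0534 to 0.180). The summed FPKM of the 3 genes lay between 126 and 145 in all 8 cultures, above that of the 4 ID genes in each.

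Over the 30 other pathway genes tested, 7 were higher and 2 lower in 2i than in 2i+LIF, where 9.77% of all genes were higher and 8.86% lower. In LIF+PD 5 were higher and 3 lower, beside 14.8% and 10.4% of all genes, and in CH+LIF 2 were higher and 6 lower, beside 12.2% and 13.3%. Their median absolute log2 fold changes in these comparisons were 0.41, 0.39 and 0.30, beside 0.24, 0.27 and 0.28 over all genes tested. Of the 56 calls made for these genes in the 6 comparisons, 25 held under all 15 alternative settings. Against 2i+LIF, these were the calls of Rgma in all 3 conditions, of Fst, Fstl1, Hey1 and Tcf12 in 2i, and of Acvr1 and Rgmb in CH+LIF.

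Markers of other cell types moved with some of these results. Of 4 mesoderm markers, T and Eomes were higher in CH+LIF than in 2i+LIF (limma), while Mixl1 and Mesp1 were below 1 FPKM in all cultures. The summed level of the 4 was 5.61 to 6.87 FPKM in 2i+LIF, 11.9 to 21.6 in 2i, 1.80 to 2.16 in LIF+PD and 27.9 to 46.8 in CH+LIF, so that, like Bmp4 and Id3, it was highest in CH+LIF and lowest in LIF+PD. In LIF+PD against 2i+LIF, however, only T was called lower, at 0.16 and 0.21 FPKM against 4.86 and 3.64. Eomes overlapped there, at 1.218 and 1.759 against 1.628 and 1.425. In 2i the sum lay above that of 2i+LIF. Bmp4 was lower in 2i, at 9.52 and 8.07 FPKM against 13.2 and 10.7, without passing. Eomes was called higher in 2i than in 2i+LIF (limma adjusted p = 0.0370), and T was not (adjusted p = 0.0543). Of 5 markers of the formative or primed epiblast, Otx2 and Sox4 were higher in 2i than in 2i+LIF, Otx2, Pou3f1 and Sox4 in LIF+PD, and Dnmt3b and Sox4 in CH+LIF, while Fgf5 was below 1 FPKM in all cultures. Their sum was 36.5 to 38.6 FPKM in 2i+LIF, 58.3 to 87.2 in 2i, 99.4 to 108 in LIF+PD and 74.8 to 77.5 in CH+LIF, so that it was higher in each condition that lacked a component. Of the neural markers, Pax6 stood at 0.577 and 0.459 FPKM in 2i+LIF, 7.81 and 9.20 in 2i, 11.3 and 10.7 in LIF+PD and 0.805 and 0.660 in CH+LIF, and was higher in 2i and LIF+PD than in 2i+LIF (limma adjusted p = 9.67e-05 and 5.98e-05). Nes stood at 4.90 and 4.10 in 2i+LIF, 2.79 and 3.14 in 2i, 7.67 and 7.14 in LIF+PD and 1.42 and 1.42 in CH+LIF, and was higher in LIF+PD (adjusted p = 0.0176) and lower in CH+LIF (adjusted p = 0.00186). Sox1, at 0 to 1.83 FPKM, did not pass against 2i+LIF. Of 5 trophectoderm markers, whose sum was 17.2 to 39.1 FPKM over the 8 cultures, members moved in opposite directions against 2i+LIF. Cdx2 was lower in LIF+PD (0.0433 and 0.0960 FPKM) and CH+LIF (1.90 and 0.733) than in 2i+LIF (10.2 and 7.91), Gata3 was higher in LIF+PD, Krt18 was higher in LIF+PD and CH+LIF, Krt8 was lower in 2i, and Elf5 was below 1 FPKM in all cultures. Of 4 fibroblast markers, whose sum was 0.777 to 1.08 FPKM in 2i+LIF and 2.38 to 5.24 in the other conditions, Thy1 was higher in all 3 of these and Twist1 in LIF+PD, while Col1a2 was below 1 FPKM in all cultures. The 4 endoderm markers, of which Gata6, Sox17 and Foxa2 were below 1 FPKM, summed to 1.07 to 2.44, and the 1 tested, Gata4, did not pass against 2i+LIF. The part of these markers' cells in the results was not tested.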

How the data were processed

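RNA of 8 cultures of Rex1GFPd2 embryonic stem cells, 2 in each of 4 conditions, was sequenced by the authors, who aligned the reads to mm10 with TopHat2 and deposited FPKM values per gene, with a lower and an upper bound, made with Cufflinks and Cuffdiff per the labels. Tool versions, the confidence level of the bounds and the strand setting are not given in the sources used here. The labels name polyadenylated RNA and the study's methods depletion of ribosomal RNA. The count tables that the methods describe were not used here, so the count test reported by the study was replaced by a test for FPKM.

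Of 39013 entries per file, 22 repeated identifiers were summed, leaving 38991 genes. Genes with at least 1 FPKM in at least 2 cultures (12927) were tested with limma 3.58.1 (R 4.3.3) on log2(FPKM + 1), with a mean-variance trend over all 8 cultures (4 residual degrees of freedom), in 6 two-sided comparisons and an F test over the 4 conditions, each with Benjamini-Hochberg adjustment at 0.05 over all genes tested. The fold changes on this scale understate those of weakly expressed genes. Depth in reads is unknown, so no counting interval is given. Tables and figures were made with Python 3.11.15, pandas 2.3.3, numpy 2.4.6 and matplotlib 3.10.9, and the fit was tested on simulated data.

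The 9 genes and the lists of pathway and marker genes were chosen with earlier results of these data known. Beside the 9, the genes named are all tested receptors, SMADs and ID partners, the genes of the other pathway lists past the F test, the 5 genes nearest in profile to Id1 and to Id3, and the checks of treatment and cell type. The result of 1 marker and the sum of its list are not reported here. Other genes named, such as Nog, Bmp8a or transcripts that overlap a member, were named for their annotation or list and not for their change.

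Groups were taken from the labels. The labels number the replicates 1 and 2 in each condition. Deviations from the condition means of samples with the same number correlated at -0.03 to 0.093 across genes. Such low values cannot exclude that samples of the same number share a batch that affects part of the genes. Whether the numbers pair the samples is thus unknown, and the main fit left them out. Promoter windows came from RefSeq (GRCm38.p6), the same primary sequence as mm10. The alternatives tried were pseudocounts of 0.1 and 5, no filter, rescaling to TPM, median-of-ratios size factors, the replicate block, leaving out each of the 8 cultures, and a fit on the 4 cultures compared.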

Additional observations from a re-analysis of the deposited data

How the results depend on the processing

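Of 435 values of the 29 changes that passed among the 9 genes, recomputed under 15 alternatives each, 387 kept direction and call, 48 lost the call and 0 reversed. For the 56 calls of other pathway genes, 715 of 840 values kept the call, 125 lost it and 0 reversed. With 2 cultures in each condition, leaving one out leaves a lone culture that is assumed to vary like the others, with 3 residual degrees of freedom, and the depth of the libraries in reads is unknown. Without the filter, 38991 genes are adjusted for and the mean-variance trend is fitted over all of them, so that unadjusted p-values change as well. The cause of the changes below was not tested.

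Without the filter, the genes called numbered 1058 in 2i against 2i+LIF (2408 with it), 1772 in LIF+PD against 2i+LIF (3263), 1425 in CH+LIF against 2i+LIF (3286), 1904 in LIF+PD against 2i (3242), 1436 in CH+LIF against 2i (3089), 2331 in CH+LIF against LIF+PD (3928) and 3218 in the F test (6052). Of the 9 genes, limma then called 0 in 2i against 2i+LIF (4 at an unadjusted p below 0.05), 1 in LIF+PD against 2i+LIF, 3 in CH+LIF against 2i+LIF and 3 in LIF+PD against 2i. Of the other pathway genes it called 4 in LIF+PD against 2i+LIF, 4 in CH+LIF against 2i+LIF and 12 in the F test.

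Leaving out each culture gave 1152 to 2150 genes called in 2i against 2i+LIF, 1661 to 3372 in LIF+PD against 2i+LIF, 1506 to 3363 in CH+LIF against 2i+LIF, 1873 to 2987 in LIF+PD against 2i, 1478 to 2726 in CH+LIF against 2i and 2262 to 4026 in CH+LIF against LIF+PD. Of the 9 genes it gave 1 to 3 in 2i against 2i+LIF, the 1 without replicate 2 of 2i+LIF, replicate 1 of 2i or replicate 2 of 2i, and 1 to 5 in LIF+PD against 2i+LIF, the 1 without replicate 2 of LIF+PD. Of the other pathway genes it gave 5 to 9 in 2i against 2i+LIF, 2 to 9 in LIF+PD against 2i+LIF, 5 to 9 in CH+LIF against 2i+LIF, 7 to 12 in LIF+PD against 2i, 7 to 12 in CH+LIF against 2i and 4 to 9 in CH+LIF against LIF+PD.

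Rescaling to TPM shifted the median log2 difference of all genes to 0.15 in LIF+PD and 0.18 in CH+LIF against 2i+LIF, and left 1 of the 9 genes called in 2i against 2i+LIF. It moved the share of higher genes among the calls from 58.6% to 74.9% in LIF+PD against 2i+LIF, from 47.9% to 74.1% in CH+LIF against 2i+LIF and from 44.5% to 64.0% in CH+LIF against 2i.

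Differences that did not pass changed sign in some settings. For Bmpr1a in CH+LIF against LIF+PD the log2 difference was 0.044 with TPM, 0.014 with size factors and -0.11 to 0.068 without a culture, and for Bmpr2 there it was 0.037, 0.017 and -0.12 to 0.11. Bmpr2 in 2i against 2i+LIF was -0.0055 with size factors and -0.22 to 0.27 without a culture. The leave-one-out range of Bmpr2 was -0.21 to 0.28 in CH+LIF and -0.21 to 0.28 in LIF+PD against 2i+LIF, -0.15 to 0.16 in CH+LIF and -0.14 to 0.16 in LIF+PD against 2i. Id4 in 2i against 2i+LIF was -0.027 with size factors and -0.16 to 0.21 without a culture, Id2 in CH+LIF against 2i was -0.17 to 0.26, and Id3 in 2i against 2i+LIF was -0.10 to 1.05.

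With the replicate number as a block, 3, 5 and 6 of the 9 genes were called in 2i, LIF+PD and CH+LIF against 2i+LIF, the same counts as without it, and the genes called in all numbered 2547, 3470 and 3519. The block ended the calls of Smad1 in 2i (adjusted p = 0.0552) and Tcf4 in LIF+PD (adjusted p = 0.0518) against 2i+LIF. Whether the numbers pair the samples is unknown.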
